A study of Mus musculus with 15 samples.

Results

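The 10 genes described here encode the machinery of major histocompatibility complex class II (MHCII) antigen presentation: *H2-Aa*, *H2-Ab1*, *H2-Eb1*, *H2-DMa*, *H2-DMb1*, *H2-DMb2*, *H2-Oa*, *H2-Ob*, *Cd74* and *Ciita*. They were listed by symbol and not by a rule on their measured values, although earlier results of these data were known. All 10 were found among the 19456 genes of the count table. All 10 also passed the filter on low counts, which left 15802 genes for testing. RNA was sequenced from Ly6Chi monocytes of the peripheral blood (3 libraries) and from 3 subsets of small intestinal macrophages (4 libraries each), named after the phosphatidylserine receptor Tim-4 and the surface protein CD4. Values for the subsets are given in the order Tim-4-CD4-, then Tim-4-CD4+, then Tim-4+CD4+. All mice were untreated wild-type adult C57BL/6 males with no transgene or reporter, and each library held the pooled cells of 3 mice, apart from monocyte replicate 2, which held those of 4. The macrophages were sorted as live CD45+CD11b+ cells that were CD64+Ly6C-MHCII+, after cells bearing TCRβ, B220, Siglec F or Ly6G had been gated out. MHCII protein was therefore part of the macrophage gate, so the comparisons with monocytes of the genes below cannot be told apart from that selection. The 3 macrophage subsets passed the same MHCII gate and were split only on Tim-4 and CD4.

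MHCII molecules are pairs of an alpha and a beta chain that carry peptides from endocytosed proteins to the cell surface, where CD4+ T cells read them. In mice of the C57BL/6 background the surface molecule is I-A, made of the products of *H2-Aa* and *H2-Ab1*, whereas I-E is absent because its alpha chain gene is defective, although the beta chain gene *H2-Eb1* is transcribed. New pairs are held by the invariant chain (*Cd74*) until proteases cut it down to a fragment in the groove, H2-DM (*H2-DMa* with *H2-DMb1* or *H2-DMb2*) exchanges that fragment for peptide, and H2-O (*H2-Oa* with *H2-Ob*) restrains H2-DM. The transactivator CIITA (*Ciita*) switches these genes on by docking on proteins bound to conserved X and Y boxes ahead of them. Resident gut macrophages are known for high surface MHCII, and blood monocytes gain it as they enter the intestinal wall and mature.

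The promoter sequences are shown so that the members can be compared at these boxes. The search used the letters GNAAC for the core of the X box and ATTGG for that of the Y box, with the first bases of both cores 25 to 40 bases apart, on both strands of the 300-base windows listed by RefSeq (GRCm38.p6, 250 bases before and 50 after a gene's start). The 2 motifs cannot overlap at that spacing. Of the 10 genes, 7 had a listed window, and 5 of those 7 held the pair, against 2.67% of all 32851 windows. The first count is of genes, of which *H2-DMa* had 2 windows, and the second is of windows. The letters are those of boxes already known ahead of class II genes, so this share is a description and no test. ATTGG or its reverse complement CCAAT alone was in 37.4% of all windows. Each line gives a stretch upstream of a start, 5′ to 3′ on the gene's strand, with the matched cores in capitals.
H2-Aa: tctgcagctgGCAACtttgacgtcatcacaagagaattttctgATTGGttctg
H2-Eb1: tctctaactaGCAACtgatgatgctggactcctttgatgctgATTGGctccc
H2-DMb1: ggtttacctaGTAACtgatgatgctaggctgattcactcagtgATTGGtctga
H2-DMb2: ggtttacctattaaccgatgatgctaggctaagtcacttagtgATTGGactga
H2-Oa: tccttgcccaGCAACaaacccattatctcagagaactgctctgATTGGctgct
H2-Ob: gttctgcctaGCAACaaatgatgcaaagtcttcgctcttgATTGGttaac

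These stretches lie at chr17:34287862-34287914 for *H2-Aa* (minus strand) and, on the plus strand, at chr17:34305766-34305817 for *H2-Eb1*, chr17:34153087-34153139 for *H2-DMb1*, chr17:34145116-34145168 for *H2-DMb2*, chr17:34092293-34092345 for *H2-Oa* and chr17:34238808-34238857 for *H2-Ob*. The cores began 33 bases apart in *H2-Aa*, *H2-DMb1* and *H2-Oa*, 32 in *H2-Eb1* and 30 in *H2-Ob*. *H2-DMb2* kept the Y core but not the letters of the X core: against the *H2-DMb1* stretch it was identical at 47 of 53 bases, and the substitutions, counted from the first printed base with *H2-DMb1* as reference, were G11T, T16C, G31A, T33G, C39T and T49A. The first of these, G11T, changes the first base of the X core. Both windows listed for *H2-DMa* lacked the pair, and no window was listed for *H2-Ab1*, *Cd74* or *Ciita*. A match to these letters is a description of the sequence and not a measured binding site.

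The labelled cell types were checked against marker genes. *C1qa*, a complement gene of resident macrophages, averaged 2.31 CPM in monocytes and 3462 to 4069 CPM in the subsets. CPM are counts per 1e6 counts in genes, on library sizes scaled by TMM. *C1qa* was 1 of 8 listed macrophage markers, and not all of them separated the populations. *Cd68* averaged 565 CPM in monocytes and 499, 501 and 528 CPM in the subsets. *Fcgr1*, the gene of CD64, averaged 279 CPM in monocytes and 300, 274 and 268 CPM in the subsets. *Ly6c2*, a gene of the Ly6C antigen, ran from 820 to 1545 CPM in monocytes and reached at most 3.46 CPM in any macrophage library. Ly6C protein was part of the sort, so the *Ly6c2* difference cannot be told apart from that selection. *Plac8*, another gene of blood monocytes, ran from 1305 to 2171 CPM in monocytes and averaged 58.8, 8.52 and 7.60 CPM in the subsets. Lists of T cell, epithelial and granulocyte markers each summed to at most 18.9 CPM in any library. Plasma cell transcripts were present in all 12 macrophage libraries, and *Jchain*, which encodes the joining chain of antibodies, averaged 280 to 297 CPM in the subsets. Tim-4+CD4+ replicate 1 and Tim-4-CD4- replicate 3 stood apart from their groups on several members, and values without them are given where they change a result. Total counts per library ran from 39388763 to 151510641.

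Class II genes took a large share of all transcripts counted in the gut macrophages and a small one in the monocytes. Together the 10 genes took 6.58 to 7.11% of all counts in Tim-4-CD4- libraries, 5.96 to 6.79% in Tim-4-CD4+ and 5.22 to 7.75% in Tim-4+CD4+, against 0.0870 to 0.198% in monocytes. *Cd74* alone took 2.37 to 3.87% of the counts of a macrophage library and 0.0470 to 0.111% of those of a monocyte library. The monocyte and macrophage ranges were far apart, whereas the ranges of the 3 subsets overlapped. In bulk RNA, fewer cells expressing a gene and less RNA per cell cannot be told apart.

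**Figure D1:**
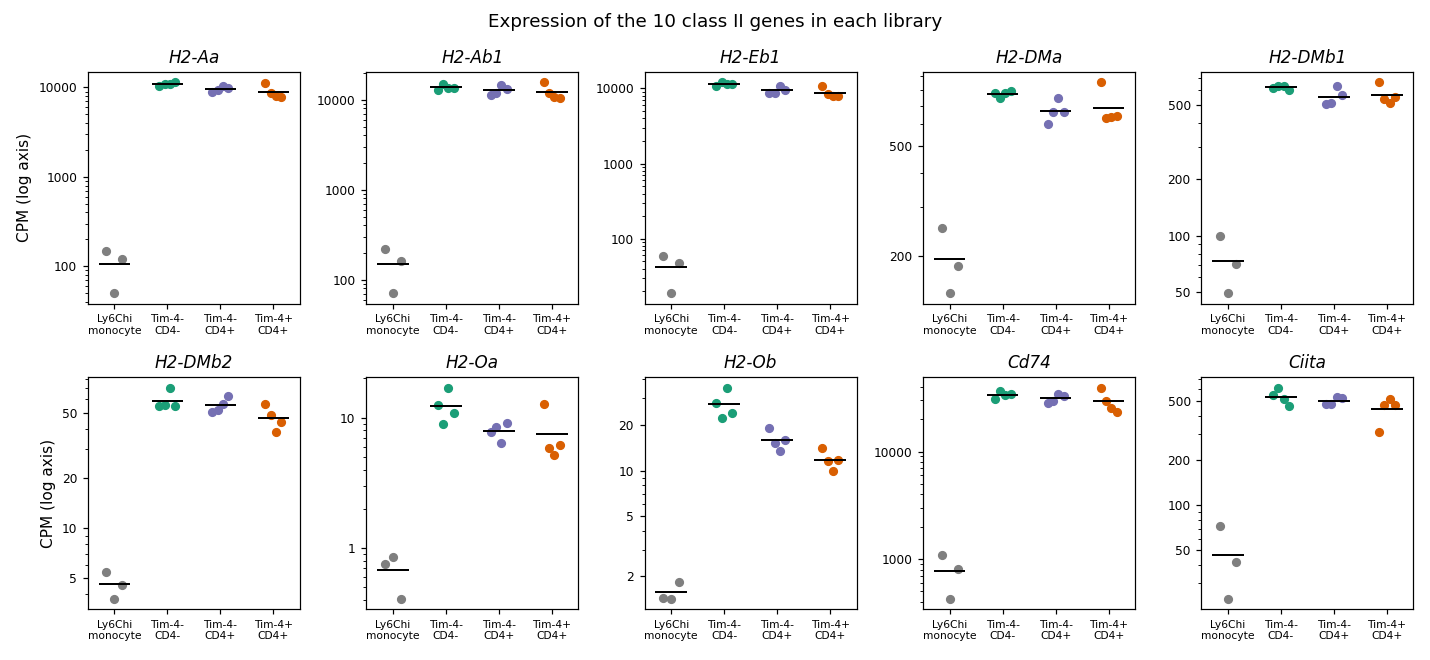
CPM (vertical log axis, scaled separately for each gene) of the 10 class II genes in every library of the 4 populations, with points for libraries and bars for group means. For each gene all 12 macrophage libraries lie above the 3 monocyte libraries, and only for *H2-Ob* do the Tim-4-CD4- libraries lie above all libraries of the other 2 subsets.

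Divided by the exon length of each gene, which allows genes to be compared, levels in macrophages spanned more than 3 orders of magnitude. The mean over macrophage libraries was 18643 CPM per kb for *Cd74*, 5085 for *H2-Eb1*, 5009 for *H2-Ab1* and 2584 for *H2-Aa*. The peptide exchange and regulatory genes followed at 345 CPM per kb for *H2-DMb1*, 206 for *H2-DMa*, 51.8 for *Ciita*, 30.7 for *H2-DMb2*, 6.59 for *H2-Oa* and 3.42 for *H2-Ob*. *H2-Eb1* and *H2-Ab1* were not separated by this measure: within Tim-4-CD4- libraries they ran from 5485 to 6199 and from 4977 to 5788 CPM per kb. Monocytes had a different order, with *Cd74* again first at 465 CPM per kb, then *H2-Ab1* (57.9), *H2-DMa* (56.2), *H2-DMb1* (43.5), *H2-Aa* (27.9), *H2-Eb1* (21.5), *Ciita* (4.84), *H2-DMb2* (2.62), *H2-Oa* (0.479) and *H2-Ob* (0.292). These lengths join the exons of all annotated transcripts, so a long minor transcript lowers a gene's value.

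The first comparison asked how the gut subsets differ from blood monocytes. *H2-Ab1* (ENSMUSG00000073421.5, chr17:34257689-34269419), the beta chain of I-A, was at 216, 70.5 and 160 CPM in monocyte replicates 1 to 3. Its level was 12780, 14863, 13577 and 13545 CPM in Tim-4-CD4-, 11376, 11930, 14477 and 13137 CPM in Tim-4-CD4+, and 15533, 11911, 10709 and 10521 CPM in Tim-4+CD4+ replicates 1 to 4. Every macrophage library was far above every monocyte library, and the 3 subsets overlapped. The edgeR log2 fold changes over monocytes were 6.52 ± 0.33 (SE), 6.42 ± 0.33 and 6.35 ± 0.33, which are 92.0-, 85.5- and 81.8-fold.

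*H2-Aa* (ENSMUSG00000036594.14, chr17:34282744-34287823), the alpha chain of I-A, was at 148, 49.9 and 120 CPM in monocytes. It was at 10306, 10955, 10833 and 11398 CPM in Tim-4-CD4-, 8953, 9399, 10328 and 9798 CPM in Tim-4-CD4+, and 11196, 8678, 8050 and 7869 CPM in Tim-4+CD4+ libraries. Monocyte replicate 2 was the lowest of its group, as it was for 9 of the 10 genes, and no macrophage library came near the monocytes. The log2 fold changes were 6.68, 6.50 and 6.40, or 103-, 90.8- and 84.4-fold.

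*H2-Eb1* (ENSMUSG00000060586.10, chr17:34305867-34316674), the I-E beta chain gene whose alpha partner is not made in this strain, had the largest rise of the 10 in all 3 subsets. It was at 58.1, 18.8 and 48.2 CPM in monocytes against 10663, 12050, 11397 and 11502 CPM in Tim-4-CD4-, 8582, 8824, 10781 and 9630 CPM in Tim-4-CD4+, and 10741, 8478, 7979 and 7991 CPM in Tim-4+CD4+ libraries. Tim-4-CD4- held the highest values, but its lowest library overlapped both other subsets. The log2 fold changes over monocytes were 8.10 ± 0.35 (SE), 7.82 ± 0.35 and 7.72 ± 0.34, or 273-, 227- and 211-fold.

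*Cd74* (ENSMUSG00000024610.14, chr18:60803848-60812652), which encodes the invariant chain, had the highest level per length of the 10 also in monocytes, where it was at 1099, 430 and 813 CPM. It reached 30472, 36177, 33343 and 34003 CPM in Tim-4-CD4-, 28496, 29253, 34409 and 32556 CPM in Tim-4-CD4+, and 39241, 29230, 25122 and 23310 CPM in Tim-4+CD4+ libraries. The 4 Tim-4+CD4+ libraries held both the highest and the lowest of the 12 macrophage values. The log2 fold changes were 5.42, 5.32 and 5.23, which are 42.9-, 39.9- and 37.4-fold.

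*Ciita* (ENSMUSG00000022504.9, chr16:10480059-10528418), the transactivator, was at 73.3, 23.8 and 41.5 CPM in monocytes. It was at 551, 615, 513 and 462 CPM in Tim-4-CD4-, 475, 481, 530 and 527 CPM in Tim-4-CD4+, and 312, 471, 518 and 472 CPM in Tim-4+CD4+ libraries. No macrophage library overlapped the monocytes, and the rise, 3.53 ± 0.29 (SE), 3.44 and 3.26 on the log2 scale, was smaller than those of the I-A chains. *Ciita* is transcribed from several promoters that differ between cell types, and the counts per gene do not separate them.

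The H2-DM genes rose less than the I-A and I-E chains. *H2-DMa* (ENSMUSG00000037649.9, chr17:34119541-34139101), the alpha chain of the peptide exchanger, was at 251, 146 and 184 CPM in monocytes and between 601 and 852 CPM in macrophages, and its log2 fold changes of 2.00, 1.79 and 1.83 were the smallest of the 10. *H2-DMb1* (ENSMUSG00000079547.3, chr17:34153072-34160230), the main beta chain, was at 100, 49.2 and 70.4 CPM in monocytes and between 504 and 661 CPM in macrophages, with log2 fold changes of 3.09, 2.92 and 2.95. *H2-DMb2* (ENSMUSG00000037548.14, chr17:34143307-34151555), the second beta chain gene, was at 5.43, 3.76 and 4.55 CPM in monocytes and between 37.9 and 70.7 CPM in macrophages. Its log2 fold changes were 3.68, 3.59 and 3.34. *H2-DMb1* and *H2-DMb2* share 290 of their 65-base exon stretches, which is the read length, amounting to 17.97% of those of *H2-DMb1*. For *H2-DMb2*, 334 stretches (19.18%) were shared with at least 1 of 55 other genes, *H2-DMb1* among them. Read pairs that lie wholly in such stretches match more than 1 gene and would not be uniquely mapped. The levels of *H2-DMb1* and *H2-DMb2* are uncertain to that extent.

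The genes of H2-O, which restrains H2-DM, were the scarcest members. *H2-Oa* (ENSMUSG00000024334.8, chr17:34092340-34095234), its alpha chain, was at 0.758, 0.856 and 0.409 CPM in monocytes, on 22 to 107 counts, and its log2 fold changes were 4.15 ± 0.36 (SE), 3.51 ± 0.35 and 3.44 ± 0.35. *H2-Ob* (ENSMUSG00000041538.15, chr17:34238903-34254414), its beta chain, was at 1.45, 1.43 and 1.84 CPM in monocytes, on 99 to 204 counts. Its log2 fold changes were 4.14 ± 0.20 (SE), 3.36 ± 0.19 and 2.93 ± 0.19. *H2-Oa* and *H2-DMa* overlap genes on the opposite strand by 321 and 360 exonic bases (*BC051537* and *Brd2*), *Ciita* overlaps *Dexi* by 329, and the libraries were stranded but the strand setting of the counting is not given in the sources used here.

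Across the group, all 10 genes passed the test as higher in each subset than in monocytes, and none passed as lower, with the edgeR quasi-likelihood test at a Benjamini-Hochberg adjusted p of 0.05 over 15802 genes. Of all genes tested, 37.3% were higher and 28.1% lower in Tim-4-CD4- than in monocytes, 39.1% and 30.7% in Tim-4-CD4+, and 39.5% and 31.3% in Tim-4+CD4+. The median log2 fold change of the 10 was 4.14, 3.55 and 3.39 in the same order, beside 0.08, 0.11 and 0.10 for all genes tested. For all 10 genes the macrophage and monocyte libraries did not overlap in any of the 3 comparisons, and 36.7, 37.9 and 37.5% of all genes tested were likewise higher without overlap. The 3 comparisons share the same 3 monocyte libraries, so they are not independent.

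**Figure D2:**
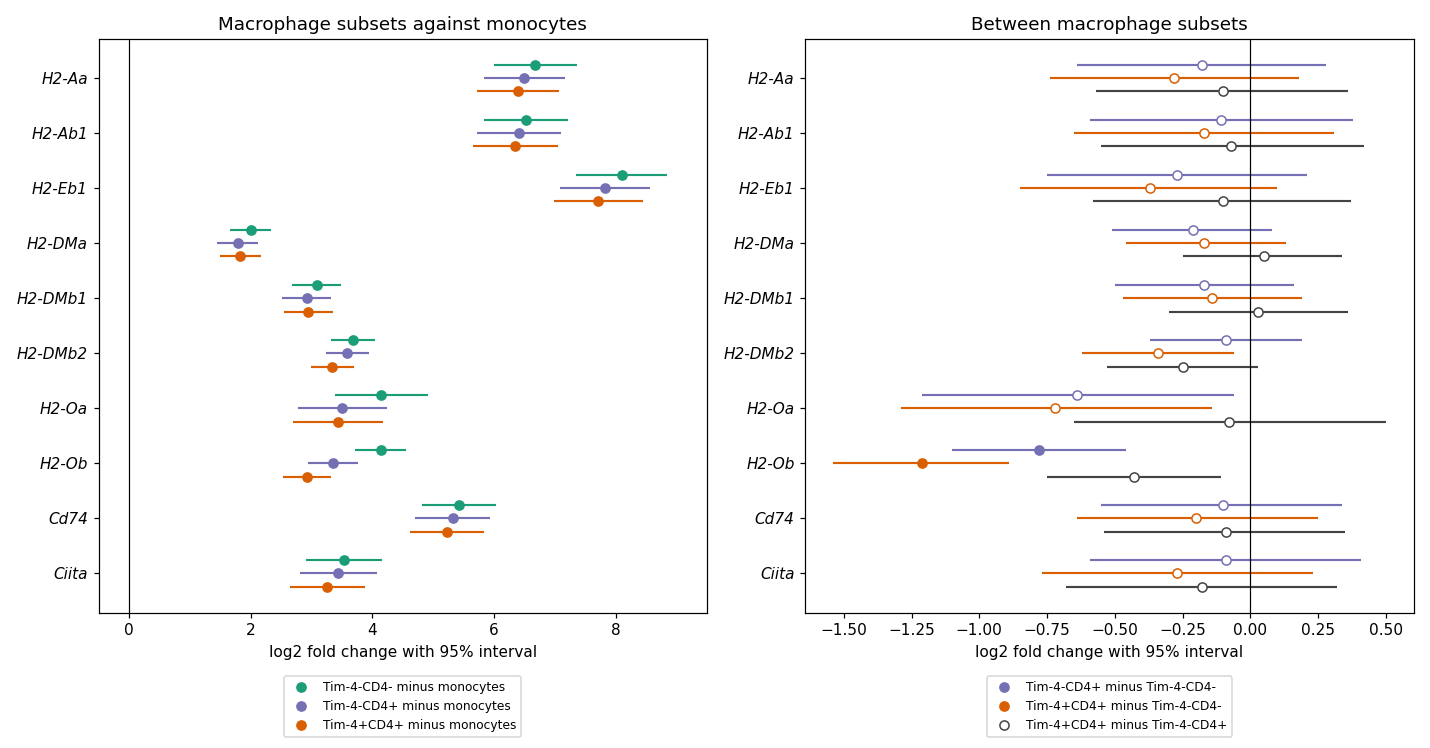
Log2 fold changes (horizontal axis) with 95% intervals from edgeR for the 10 genes, macrophage subsets against monocytes on the left and between subsets on the right. Filled points passed an adjusted p of 0.05 and hollow points did not. All 30 points on the left are filled, and on the right only *H2-Ob* is filled, at -0.78 and -1.21 against Tim-4-CD4-.

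The second question was whether the 3 macrophage subsets, sorted from the same gate, differ in class II expression. One member passed the test: *H2-Ob* was lower in both CD4+ subsets than in Tim-4-CD4- macrophages. It was at 28.1, 22.4, 35.3 and 24 CPM in Tim-4-CD4-, 19.2, 15.2, 13.5 and 15.9 CPM in Tim-4-CD4+, and 14.0, 11.6, 9.97 and 11.7 CPM in Tim-4+CD4+ replicates 1 to 4, on 601 to 2360 counts a library. All 4 Tim-4-CD4- libraries were above all 8 CD4+ libraries, and the 2 CD4+ subsets overlapped between 13.5 and 14.0 CPM. Compared with Tim-4-CD4-, the log2 fold change was -0.78 ± 0.15 (SE, 95% interval -1.10 to -0.46, adjusted p = 0.0027 from edgeR), or 1.72-fold lower, in Tim-4-CD4+. It was -1.21 ± 0.15 (-1.54 to -0.89, adjusted p = 2e-05), or 2.32-fold lower, in Tim-4+CD4+. Between the 2 CD4+ subsets it was -0.43 (-0.75 to -0.11), which did not pass over all genes (adjusted p = 0.17).

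Without Tim-4-CD4- replicate 3, the highest library, the log2 fold changes of *H2-Ob* were -0.64 (adjusted p = 0.012) and -1.06 (adjusted p = 8.1e-05, edgeR). Thus 1 of the 10 genes was lower and none was higher in Tim-4-CD4+ than in Tim-4-CD4- macrophages, where 5.53% of all genes were lower and 4.52% higher. The count was the same in Tim-4+CD4+ against Tim-4-CD4-, where 11.9% of all genes were lower and 11.3% higher. No member passed between the CD4+ subsets, where 1.34% of all genes were lower in Tim-4+CD4+ and 2.07% higher, and 1 of the 10 had an unadjusted p under 0.05 from edgeR. *H2-Ob* was the only member whose groups did not overlap between subsets, where 9.91% and 13.8% of all genes were lower without overlap in the comparisons with Tim-4-CD4- and 4.12% in that of the CD4+ subsets. A share of 1 in 10 is of the size of the background in the comparison of Tim-4+CD4+ with Tim-4-CD4-.

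*H2-Oa*, the partner chain, had lower point estimates in the same direction without passing the test. It was at 12.6, 8.98, 17.0 and 10.8 CPM in Tim-4-CD4-, 7.73, 8.45, 6.44 and 9.15 CPM in Tim-4-CD4+, and 12.7, 5.86, 5.21 and 6.19 CPM in Tim-4+CD4+ libraries. Tim-4+CD4+ replicate 1 lay among the Tim-4-CD4- values, and the other 3 libraries of its group lay below them all. The log2 fold changes against Tim-4-CD4- were -0.64 (95% interval -1.21 to -0.06, adjusted p = 0.17 from edgeR) and -0.72 (-1.29 to -0.14, adjusted p = 0.069). Without Tim-4+CD4+ replicate 1 the second became -1.10 with an adjusted p of 0.0018, and the first, still -0.64, had an adjusted p of 0.047. Without Tim-4-CD4- replicate 3 they became -0.45 and -0.51, with adjusted p of 0.44 and 0.24.

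The other members differed little between subsets. All 10 log2 fold changes of each CD4+ subset against Tim-4-CD4- were negative, with medians of -0.17 and -0.28 beside 0.00 for all genes tested, and both comparisons share the Tim-4-CD4- libraries. For *H2-Aa*, *H2-Ab1*, *H2-Eb1* and *Cd74* the estimates against Tim-4-CD4- ran from -0.10 to -0.37, with adjusted p from 0.26 to 0.85. The 95% interval reaching lowest, that of *H2-Eb1* in Tim-4+CD4+, ran from -0.85 to 0.10. That difference of *H2-Eb1* passed in 2 of 23 alternative settings, at -0.36 (adjusted p = 0.033) in an edgeR fit of only the populations compared and at -0.37 (adjusted p = 0.026) without monocyte replicate 2. For *Ciita* the estimates were -0.09 (-0.59 to 0.41, adjusted p = 0.88) and -0.27 (-0.77 to 0.23, adjusted p = 0.45).

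The H2-DM genes did not pass between subsets either. *H2-DMa* was at 780, 746, 781 and 795 CPM in Tim-4-CD4-, 601, 663, 746 and 665 CPM in Tim-4-CD4+, and 852, 630, 638 and 642 CPM in Tim-4+CD4+ libraries. Tim-4+CD4+ replicate 1 was the highest of the 12, and the other 3 of its group were below all Tim-4-CD4- libraries. *H2-DMb1* was at 619, 630, 635 and 603 CPM, then 504, 511, 636 and 564 CPM, then 661, 539, 514 and 549 CPM in the same order. *H2-DMb2* was at 55.1, 55.8, 70.7 and 54.5 CPM, then 50.6, 51.7, 56.6 and 62.6 CPM, then 56.4, 48.6, 37.9 and 43.6 CPM. Of the 3, *H2-DMb2* came closest to the threshold, at -0.34 (95% interval -0.62 to -0.06, adjusted p = 0.078 from edgeR) in Tim-4+CD4+ against Tim-4-CD4-. Without Tim-4+CD4+ replicate 1 it passed, at -0.44 (adjusted p = 0.02). It was weaker without Tim-4-CD4- replicate 3, the highest library for this gene, at -0.23 (adjusted p = 0.28, edgeR). Without Tim-4+CD4+ replicate 3 it was at -0.24 (adjusted p = 0.22, edgeR).

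Library Tim-4+CD4+ replicate 1 was the highest of its group in 9 of the 10 genes and the lowest in the remaining one, *Ciita*. Class II genes took 7.75% of its counts, the highest share of any library. Monocyte replicate 2 was the lowest of its group in 9, and Tim-4-CD4+ replicate 1 in 8. The source of these shifts was not tested.

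Transcripts of other antigen-presenting cells were measured beside *H2-Ob*, since its product is best known from B cells and dendritic cells. Of 8 dendritic cell markers (*Zbtb46*, *Flt3*, *Xcr1*, *Clec9a*, *Ccr7*, *Itgae*, *Batf3*, *Cd209a*), 3 passed as lower in Tim-4-CD4+ than in Tim-4-CD4-, 4 did so for Tim-4+CD4+, and none was higher. Of all genes tested, 5.53% and 11.9% were lower in these comparisons. *Flt3*, the receptor of a dendritic cell growth factor, was at 7.57, 4.41, 17.9 and 4.76 CPM in Tim-4-CD4- and reached at most 1.61 CPM in the CD4+ subsets, a log2 fold change of -3.42 and -3.90. It was also at 21.8 to 33.5 CPM in monocytes, in which *H2-Ob* was low. *Cd209a* fell by 1.57 and 2.33 and *Itgae* by 1.72 and 2.12 on the log2 scale, and *Ccr7*, a migration receptor, passed in Tim-4+CD4+ (-1.95). Without Tim-4-CD4- replicate 3, *Flt3* still passed in both (-2.79 and -3.26) and so did *Cd209a* (-1.17 and -1.92), whereas *Itgae* was at -0.65 (adjusted p = 0.34) and -1.05 (adjusted p = 0.048) and *Ccr7* at -1.36 (adjusted p = 0.064, edgeR) in Tim-4+CD4+. The summed level of the 8 markers was 146 to 229 CPM in Tim-4-CD4-, 112 to 128 CPM in Tim-4-CD4+, 103 to 161 CPM in Tim-4+CD4+ and 65.1 to 93.9 CPM in monocytes, and none of the 8 was at 0 in a macrophage library. *Zbtb46*, a factor that marks dendritic cells, ran from 0.720 to 5.30 CPM in macrophage libraries, and the lineage markers *Xcr1* and *Clec9a* passed no test between subsets. Among macrophage libraries, Tim-4-CD4- replicate 3 was the highest for *H2-Ob* and *H2-Oa*. It was also the highest of them for *Flt3*, *Zbtb46* (5.30 CPM), *Itgae* (24.7 CPM), *Ccr7* (14.3 CPM) and *Cd209a* (67.7 CPM). The same library was the lowest of its group for *Clec9a* (24.7 CPM) and *Batf3* (71.7 CPM). For *Xcr1* it was at 2.87 CPM, below Tim-4-CD4- replicate 4 (4.22 CPM).

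The monocyte markers *Ccr2* and *Plac8* moved in the same direction as *H2-Ob* and were lower in each CD4+ subset than in Tim-4-CD4-. *Ccr2*, the chemokine receptor that lets monocytes leave the marrow, averaged 660 CPM in Tim-4-CD4-, 84.1 CPM in Tim-4-CD4+ and 8.39 CPM in Tim-4+CD4+. Of the B cell markers, *Cd22*, an inhibitory lectin, moved opposite to *H2-Ob* among macrophages, at 117 to 127, 234 to 273 and 268 to 313 CPM in the 3 subsets and at most 5.75 CPM in monocytes. The B cell genes *Ms4a1* and *Pax5* stayed at or below 3.05 CPM in every macrophage library and passed no test between subsets. Another gene of that list, *Cd79b*, ran from 30.3 to 61.5 CPM in macrophage libraries and from 8.08 to 10.3 CPM in monocytes, and *Cd79a* reached 5.97 CPM. Of 5 mesenchymal and endothelial markers, cells that the CD45 gate would remove, 1 passed as higher in Tim-4-CD4+ than in Tim-4-CD4-, 3 did so for the Tim-4+ subset, and none was lower. Between the CD4+ subsets, 2 passed as higher in Tim-4+CD4+. Of all genes tested, 4.52%, 11.3% and 2.07% were higher in these comparisons. The largest of these levels was that of *Pecam1*, an adhesion molecule also found on leukocytes, which averaged 104, 185 and 305 CPM in the subsets. The collagen gene *Col3a1* averaged 27.2, 27.8 and 46.1 CPM, and *Col1a1* 19.4, 20.5 and 32.0 CPM. *Pdgfra* and *Cdh5* averaged at most 5.24 CPM in any subset. The part that dendritic cells, monocyte-derived cells or B cells had in the *H2-Ob* difference was not tested.

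**Figure D3:**
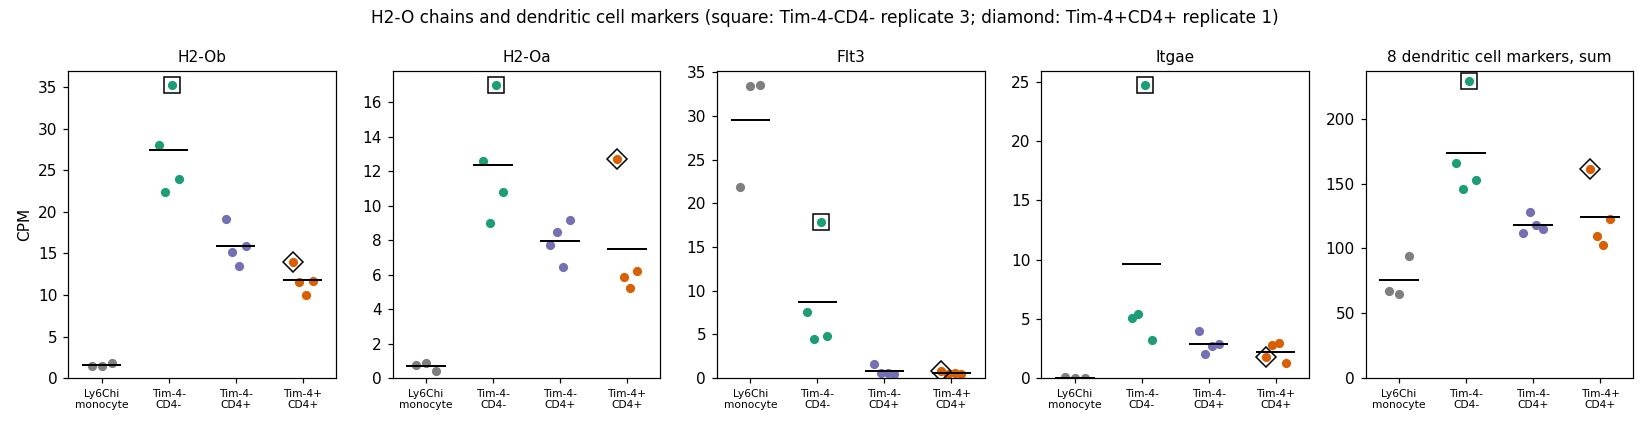
CPM (vertical axis from 0) of *H2-Ob*, *H2-Oa*, the dendritic cell markers *Flt3* and *Itgae* and the sum of the 8 dendritic cell markers in every library, with bars for group means. The square marks Tim-4-CD4- replicate 3, the highest of its group in all 5 panels, and the diamond Tim-4+CD4+ replicate 1.

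Ratios between chains, taken within each library, do not depend on depth or on how libraries are scaled. They are given per kb of exon as the geometric mean of the first gene's level in percent of the second. *H2-Aa* stood at 48.3% of *H2-Ab1* in monocytes and at 53.7, 51.2 and 49.8% in the subsets, so this pair, which makes up I-A, kept nearly the same proportion while both genes rose by 81.8-fold or more. *H2-Eb1* stood at 36.8% of *H2-Ab1* in monocytes, where libraries ran from 35.3 to 39.8%, and at 110, 98.1 and 96.0% in the subsets. *Cd74* was at 826% of *H2-Ab1* in monocytes and at 374, 375 and 364% in macrophages.

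The largest shift of the 8 ratios was that of *H2-DMa*, which was at 105% of *H2-Ab1* in monocytes, with libraries from 85.7 to 154%, and at 4.22, 3.92 and 4.25% in macrophages. *H2-DMb1* was at 76.2% of its partner *H2-DMa* in monocytes and at 164, 170 and 169% in macrophages. *H2-DMb2* remained the minor beta chain gene in every library, at 6.22% of *H2-DMb1* in monocytes and 9.08, 9.63 and 7.88% in macrophages. With 3 monocyte libraries against 4, an exact permutation test cannot give a p below 0.057, so these comparisons are described only.

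Between subsets, 8 ratios in 3 comparisons gave 24 exact two-sided permutation tests, where the smallest p that 4 against 4 libraries allow is 0.0286. Over 24 tests, a few at that smallest p cannot pass Benjamini-Hochberg adjustment, so not passing does not show equal ratios. None passed after adjustment (smallest adjusted p = 0.23, exact permutation test), and 3 reached the p of 0.0286. These were *H2-Eb1* to *H2-Ab1*, which was lower than in Tim-4-CD4- by 0.17 in Tim-4-CD4+ and by 0.20 in Tim-4+CD4+ on the log2 scale, and *H2-Ob* to *H2-Oa*, lower by 0.42 in Tim-4+CD4+. For the latter, Tim-4+CD4+ replicate 1 was at 28.6% and the other 3 libraries of its group at 49.6 to 51.9%, and the difference without replicate 1 was -0.22. For *H2-Eb1* to *H2-Ab1* the 4 Tim-4-CD4- libraries ran from 107 to 112%, above the ranges of 96.8 to 99.6% and 91.3 to 100% in the CD4+ subsets. *H2-Oa* stood at 3.80, 2.90 and 2.51% of *H2-DMa* in the 3 subsets and at 0.842% in monocytes, and the ranges of the subsets overlapped.

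**Figure D4:**
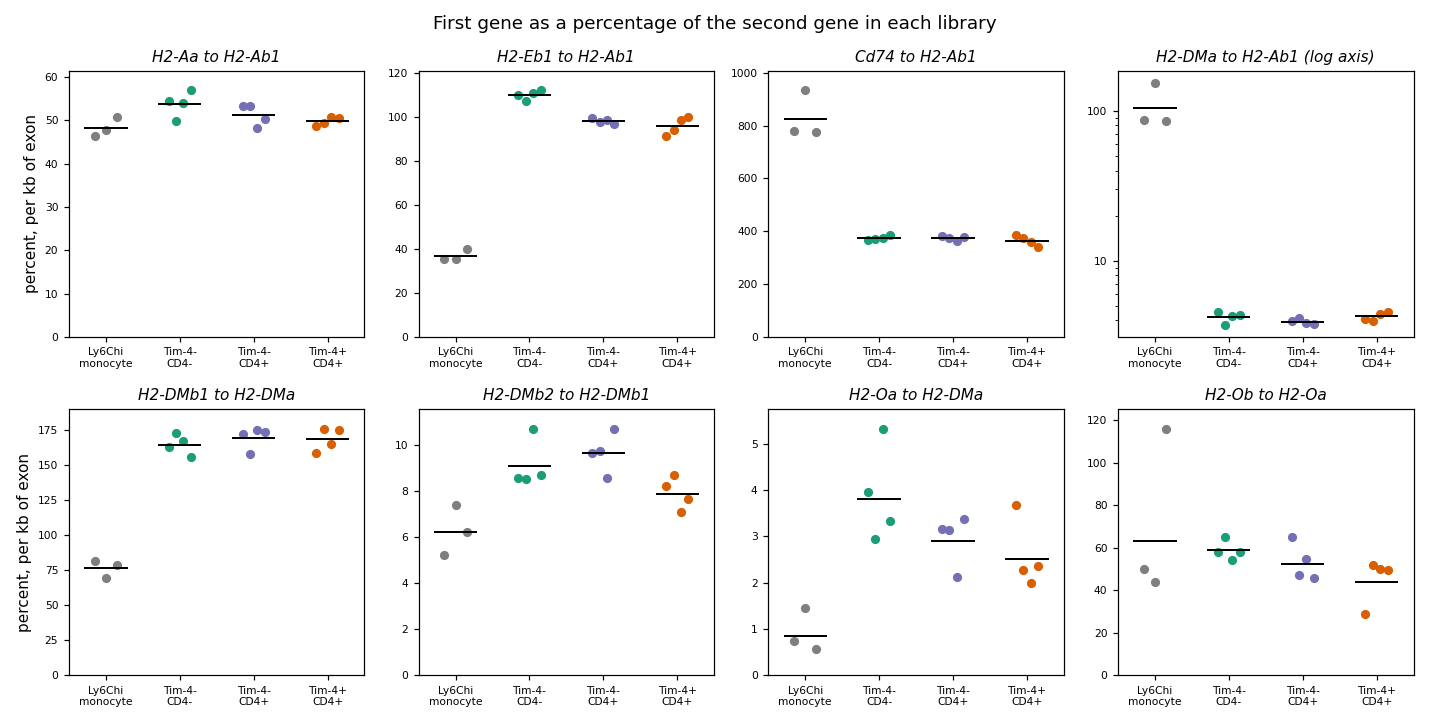
Level of the first gene in percent of the second, per kb of exon, in each library (points) with the geometric mean of each group (bars). Axes start at 0 except for *H2-DMa* to *H2-Ab1*, which has a log axis, where monocytes lie between 85.7 and 154% and macrophages between 3.74 and 4.55%.

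The members varied together across macrophage libraries, as did many other genes, with *Ciita* as an exception that rests on 1 library. Over the 12 macrophage libraries, which share their depth scaling and include 3 groups, Pearson's r of log2 CPM was 0.86 to 0.98 (median 0.92) for the 6 pairs among *H2-Aa*, *H2-Ab1*, *H2-Eb1* and *Cd74*. It was 0.41 to 0.98 (median 0.78) for the 36 pairs of members without *Ciita*. *Ciita* correlated with the other 9 at -0.27 to 0.28 (median -0.12). Without Tim-4+CD4+ replicate 1, in which *Ciita* was lowest and the other genes high, these 9 values became 0.22 to 0.58 (median 0.42), while those of the 36 other pairs were 0.52 to 0.97. All these values are descriptions over libraries of 3 groups and carry no test.

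Among 11798 genes, the 5 whose log2 CPM over the 12 libraries was most like the mean of *H2-Aa*, *H2-Ab1*, *H2-Eb1* and *Cd74* were *Tpt1-ps3* (r = 0.96), *Arhgap9* (0.94), *Elob* (0.93), *Cmtm7* (0.93) and *Rnf130* (0.93). *H2-DMb1* and *H2-DMa* came in at 0.86 (ranks 65 and 67), *H2-DMb2* at 0.77 (rank 326), *H2-Oa* at 0.70 (rank 655) and *H2-Ob* at 0.58 (rank 1414). Many genes outside the class II group therefore followed this mean as closely as these members did, or more closely. The 5 most like *Ciita* were *Eif4ebp2* (0.97), *Gatad2b* (0.97), *Phf2* (0.96), *Zfp516* (0.96) and *Pptc7* (0.96).

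Other genes of the pathway were taken from lists of transcription factors, inducers of *Ciita*, processing enzymes, surface turnover genes, costimulatory ligands and partners of the invariant chain. Of 40 listed genes 38 were tested. Against monocytes, 20, 21 and 20 were higher and 13, 12 and 12 lower in the subsets. Of all genes tested, 37.3, 39.1 and 39.5% were higher and 28.1, 30.7 and 31.3% lower. Against Tim-4-CD4-, 6 were higher and 3 lower in Tim-4-CD4+, where 4.52% of all genes were higher and 5.53% lower. For Tim-4+CD4+, 10 were higher and 6 lower, where 11.3% of all genes were higher and 11.9% lower. No listed gene passed between the CD4+ subsets, where 2.07% of all genes were higher and 1.34% lower in Tim-4+CD4+. These shares are also the background of the counts for single lists below. Genes named below beyond those chosen by the naming rule (*Ctsb*, *Ctsz*, *Cd83*, *Nfya*, *Irf1* and *Mif*) were picked after their values were seen.

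The factors that bind the X and Y boxes did not rise as a group with their targets. Of 7 (*Rfx5*, *Rfxap*, *Rfxank*, *Nfya*, *Nfyb*, *Nfyc*, *Creb1*), 4 were lower in each subset than in monocytes, *Rfx5* was higher in each, and *Nfya* passed as higher in the Tim-4- subsets, with 0.17 (adjusted p = 0.2) in Tim-4+CD4+. *Rfx5*, the large subunit of the X box complex, rose by 1.36 ± 0.14 (SE), 1.37 and 1.23 on the log2 scale and was not different between subsets by the test (0.01, -0.13 and -0.14, adjusted p from 0.5 to 0.98). *Nfyb*, a subunit of the Y box factor, was the one factor that passed between subsets, lower by 0.38 in Tim-4+CD4+ than in Tim-4-CD4- (adjusted p = 0.011).

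Of 8 genes upstream of *Ciita*, 4 (*Ifngr1*, *Jak1*, *Jak2*, *Spi1*) were lower in every subset than in monocytes and *Irf8* was higher in each, while *Irf1* passed as higher in Tim-4+CD4+ (0.69, with 0.62 and 0.54 in the other subsets). *Ifngr1*, the ligand-binding chain of the interferon gamma receptor, was at 731, 728 and 686 CPM in monocytes, 254, 281, 270 and 257 CPM in Tim-4-CD4-, 207, 190, 227 and 216 CPM in Tim-4-CD4+, and 197, 203, 199 and 178 CPM in Tim-4+CD4+ libraries. All Tim-4-CD4- libraries were above all CD4+ libraries, and its log2 fold changes against Tim-4-CD4- were -0.34 (adjusted p = 0.0086) and -0.45 (adjusted p = 0.0004, edgeR). *Irf8*, a factor of the interferon response and of myeloid identity, went the other way, at 0.31 (adjusted p = 0.025) and 0.53 (adjusted p = 0.00019). *Jak2*, a kinase of that receptor, was lower by 0.42 in Tim-4+CD4+ than in Tim-4-CD4- (adjusted p = 0.022), with -0.23 (adjusted p = 0.31) in Tim-4-CD4+.

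Among 11 genes that process antigen and the invariant chain, 7 were higher in each subset than in monocytes, and 4, 3 and 3 were lower. *Ctss*, the protease that trims the invariant chain in dendritic cells and B cells, rose by 0.32, 0.39 and 0.38 on the log2 scale and passed no test between subsets. *Ifi30*, a thiol reductase that unfolds antigens, fell by 0.37, 0.63 and 0.53. *Ctsl*, a protease that cuts the invariant chain in thymic epithelium, was at 43.9, 36.6 and 33.9 CPM in monocytes, 273, 318, 271 and 297 CPM in Tim-4-CD4-, 430, 439, 457 and 464 CPM in Tim-4-CD4+, and 496, 466, 446 and 428 CPM in Tim-4+CD4+ libraries. The CD4+ libraries were all above the Tim-4-CD4- libraries, by 0.63 (adjusted p = 0.00022) and 0.66 (adjusted p = 4.1e-05, edgeR) on the log2 scale.

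*Cst3*, a secreted inhibitor of these proteases, moved in the opposite direction. It was at 600, 606, 683 and 650 CPM in Tim-4-CD4-, 439, 420, 434 and 406 CPM in Tim-4-CD4+, and 499, 360, 379 and 322 CPM in Tim-4+CD4+ libraries, without overlap between Tim-4-CD4- and either CD4+ subset. Its log2 fold changes were -0.58 (adjusted p = 0.0036) and -0.70 (adjusted p = 0.00031, edgeR). *Lgmn*, an endopeptidase, was higher by 0.29 (adjusted p = 0.039) and 0.36 (adjusted p = 0.0056), and *Ctsd*, an aspartic protease, by 0.67 in Tim-4+CD4+ (adjusted p = 0.005). *Ctsb* and *Ctsz* were the other 2 of the 5 processing genes higher in Tim-4+CD4+, by 0.50 and 0.51.

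All 6 costimulatory and checkpoint ligands (*Cd80*, *Cd86*, *Cd40*, *Icosl*, *Cd274*, *Pdcd1lg2*) were higher in each subset than in monocytes. *Pdcd1lg2*, a ligand of the inhibitory receptor PD-1, was at 0.213, 0.311 and 0.502 CPM in monocytes, 25.3, 22.9, 24.8 and 25.6 CPM in Tim-4-CD4-, 57.3, 59.6, 56.3 and 68.4 CPM in Tim-4-CD4+, and 43.2, 56.3, 47.2 and 49.7 CPM in Tim-4+CD4+ libraries. Tim-4-CD4- lay below both CD4+ subsets without overlap, with log2 fold changes of 1.29 ± 0.13 (SE, adjusted p = 6.2e-06) and 0.99 ± 0.13 (adjusted p = 2.3e-05, edgeR) for the CD4+ subsets. *Cd80*, a ligand of CD28, was higher by 0.37 (adjusted p = 0.0092) and 0.35 (adjusted p = 0.0063). *Icosl* and *Cd274*, the ligands of ICOS and PD-1, passed in Tim-4+CD4+ against Tim-4-CD4-, at 0.51 (adjusted p = 0.0017) and 0.53 (adjusted p = 0.049).

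Of 3 genes that set how long MHCII stays on the surface, *March1*, a ubiquitin ligase that sends it for degradation, was higher by 0.49 in Tim-4-CD4+ than in Tim-4-CD4- (adjusted p = 0.019), and in Tim-4+CD4+ the value was 0.29 (adjusted p = 0.11). *Cd83*, which opposes that ligase, averaged 3.67 CPM in monocytes and 2148, 1778 and 1588 CPM in the subsets, with no test passed between subsets. *Cd44*, the signalling partner of surface CD74, was lower by 0.53 (adjusted p = 0.046) and 0.96 (adjusted p = 0.00032, edgeR) in the CD4+ subsets than in Tim-4-CD4-. *Mif*, a ligand of CD74, was higher in every subset than in monocytes and passed no test between subsets.

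**Figure D5:**
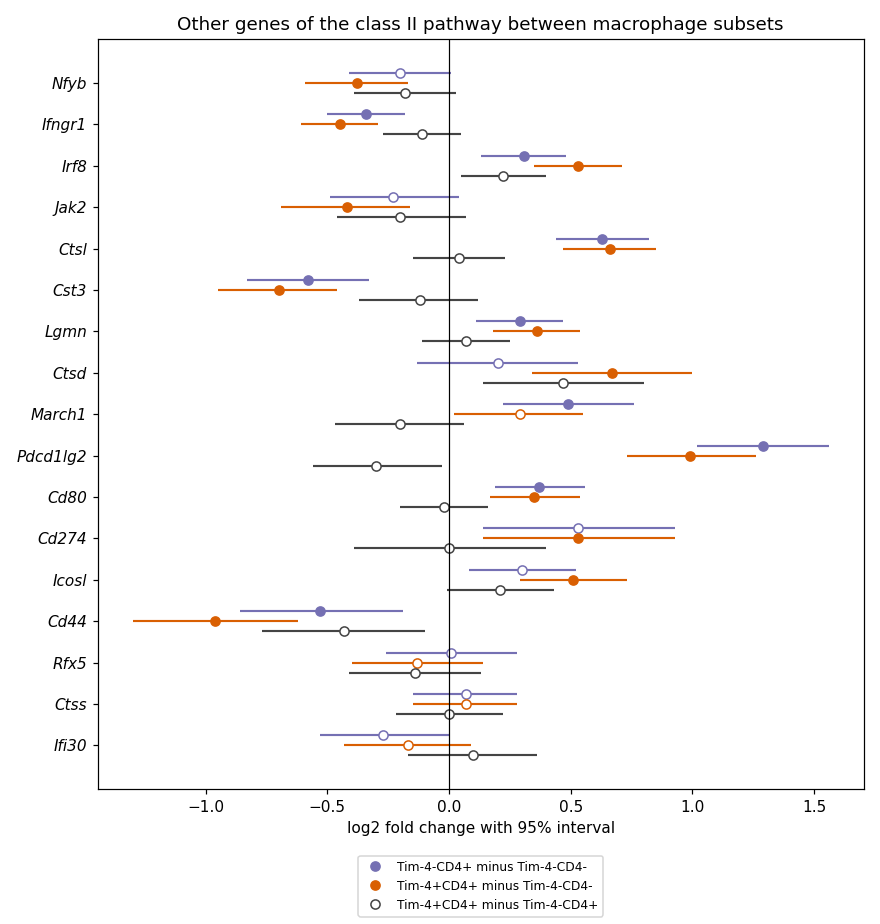
Log2 fold changes (horizontal axis) with 95% intervals from edgeR between macrophage subsets for 17 other genes of the pathway. Filled points passed an adjusted p of 0.05 and hollow points did not. *Pdcd1lg2* has the largest difference, at 1.29 and 0.99 against Tim-4-CD4-, and none of the Tim-4+CD4+ against Tim-4-CD4+ points is filled.

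One further gene of the class II region, *H2-Eb2*, is a little-known relative of *H2-Eb1* that was listed with the pathway and is described here after its values were seen. Its promoter window holds the same pair of cores, 32 bases apart, at chr17:34325533-34325584.
H2-Eb2: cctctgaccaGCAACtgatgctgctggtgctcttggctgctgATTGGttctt

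*H2-Eb2* was near the limit of detection in monocytes, with 3, 2 and 4 counts in replicates 1 to 3. It was at 1.88, 1.1, 2.20 and 2.28 CPM in Tim-4-CD4-, 1.23, 0.708, 0.563 and 1.28 CPM in Tim-4-CD4+, and 0.516, 0.886, 0.900 and 0.929 CPM in Tim-4+CD4+ libraries, on 28 to 190 counts. The Tim-4+CD4+ libraries were all below those of Tim-4-CD4-, and Tim-4-CD4+ overlapped both. Like *H2-Ob*, it was lower in Tim-4+CD4+ than in Tim-4-CD4- macrophages, with a log2 fold change of -1.21 ± 0.37 (SE, adjusted p = 0.024 from edgeR, with 19 of 22 alternative settings passing). In Tim-4-CD4+ the difference was -0.98 (adjusted p = 0.11).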

How the data were processed

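Poly(A)-selected RNA of 15 sorted-cell libraries was sequenced as stranded paired 65-base reads. According to the study's methods and the submitters' processing notes, the authors called bases with bcl2fastq 2.17.1.14, used Trimmomatic 0.36 for trimming and STAR for alignment (GRCm38.p4), and deposited the count of uniquely mapped reads per GENCODE vM11 gene from HTSeq 0.6.1p1, without pooling libraries. The strand setting of the counting is not given in the sources used here. The other 15 value columns, the same counts divided by size factors, were not used.

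Raw counts of 19456 genes were filtered with filterByExpr, scaled by TMM and tested with edgeR 4.0.16 (quasi-likelihood, R 4.3.3) in 1 fit over all 15 libraries, for 6 comparisons, with Benjamini-Hochberg adjustment over 15802 genes within each and a threshold of 0.05. The code was tested on simulated counts. Log2 ratios between members used counts plus 0.5, and exact two-sided permutation tests from scipy 1.17.1. Alternatives were DESeq2 1.42.0, other scalings, no filter, fits of the populations compared alone, replicate blocks, and leaving out each of the 15 libraries.

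Groups came from the labels. The paper describes 4 independent sorts of macrophages and 3 of monocytes, so libraries were treated as replicates. The replicate numbers gave no clear pairing of the samples. Macrophage libraries of the same number deviated together at r over 0.1 in 2 of 12 pairs by the numbers in the titles. By those in the descriptions, which disagree for Tim-4-CD4+, it was 4 of 12. Among pairs of different numbers it was 8 of 36 by the titles and 6 of 36 by the descriptions. Whether libraries of different subsets came from the same sort cannot be told from these values.

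The members and gene lists were chosen with earlier results of these data known. Some marker genes of these lists, and sums that hold them, are not reported here. The genes named are the 10 members. From each other pathway list they are also up to 3 genes per comparison between subsets that passed and averaged 1 CPM or more, by size of change, with *Rfx5*, *Ctss* and *Ifi30* always. The last are the 5 genes most correlated with 2 member profiles. Total counts of 39388763 to 151510641 set the counting precision, and intervals cover the spread between libraries as fitted by edgeR.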

Additional observations from a re-analysis of the deposited data

Results flagged for a closer look

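In 3 of the 30 groups of 4 macrophage libraries (10 genes in 3 subsets), 1 library lay far from the other 3 by Dixon's ratio of gap to range, where chance gives about 1 group in 20. *H2-DMa* was at 852 CPM in Tim-4+CD4+ replicate 1 (ratio 0.946), with the other 3 libraries at 630 to 642 CPM. *H2-Oa* was at 12.7 CPM in the same library (ratio 0.870), with the others at 5.21 to 6.19 CPM. *H2-DMb2* was at 70.7 CPM in Tim-4-CD4- replicate 3 (ratio 0.923), with the others at 54.5 to 55.8 CPM. The source of these values was not tested.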

How the results depend on the processing

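All 10 class II genes passed as higher than in monocytes in each subset under all 23 alternatives run, and *H2-Ob* passed as lower than in Tim-4-CD4- in both CD4+ subsets under all 23. With the replicate block by title number, the log2 fold changes of *H2-Ob* were -0.78 and -1.20 (adjusted p = 0.006 and 9.2e-05, edgeR). Under the block by title or by description number, 10 members still passed against monocytes in each subset. The numbers of all genes passing under the title block were 1294, 3267 and 431, against 1589, 3656 and 539 without it.

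The count of members passing between subsets was less stable. Against Tim-4-CD4-, 2 instead of 1 passed in each CD4+ subset when only the populations compared were fitted, and 2 with DESeq2 in Tim-4+CD4+. Leaving out each library gave 1 to 2 in Tim-4-CD4+ and 1 to 3 in Tim-4+CD4+. Without Tim-4+CD4+ replicate 1 the added genes were *H2-Oa* (in both) and *H2-DMb2*, with DESeq2 *H2-Oa*, with only the populations compared *H2-Oa* in Tim-4-CD4+ and *H2-Eb1* in Tim-4+CD4+, and without monocyte replicate 2 *H2-Eb1* (-0.37, adjusted p = 0.026, edgeR). Of the pathway genes in Tim-4-CD4+ against Tim-4-CD4-, 15 passed with DESeq2 and 14 with only these populations, against 9, and 5 to 13 with 1 library left out (5 without Tim-4-CD4+ replicate 4). Between the CD4+ subsets 0 to 1 passed (1 without Tim-4-CD4+ replicate 3). Over all genes, DESeq2 called 917 between the CD4+ subsets, against 539, and leaving out 1 library gave 1033 (without Tim-4-CD4+ replicate 4) to 2203 (without Tim-4+CD4+ replicate 1) in Tim-4-CD4+ against Tim-4-CD4-. The cause was not tested.

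Small differences changed sign with 1 library left out. In Tim-4-CD4+ against Tim-4-CD4-, *H2-DMb2* ran from -0.15 to 0.01. In Tim-4+CD4+ against Tim-4-CD4+, *H2-Ab1* ran from -0.20 to 0.02, *H2-DMa* from -0.07 to 0.12, *H2-DMb1* from -0.05 to 0.12, *H2-Oa* from -0.46 to 0.07 and *Cd74* from -0.27 to 0.00. Log2 ratios that did so were *Cd74* to *H2-Ab1* (-0.01 to 0.02), *H2-DMa* to *H2-Ab1* (-0.05 to 0.04) and *H2-DMb1* to *H2-DMa* (-0.04 to 0.02).

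Calls between subsets lost under many of the 23 alternatives were *Cd274* in Tim-4+CD4+, and *Cd44* and *Lgmn* in Tim-4-CD4+ (each 14), and *Irf8* in Tim-4-CD4+ (7). With 4 libraries a group, and 3 of monocytes, the spread between libraries limited what could be detected. *H2-Oa* in monocytes rested on 22 to 107 counts.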
